A study of Homo sapiens with 12 samples.

Results

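The DNA replication and S-phase genes are a list of 40 genes. Their products license replication origins, unwind and copy DNA, supply its nucleotides, control S-phase genes, or serve the replication checkpoint or DNA methylation upkeep. The genes were chosen by symbol from a fixed list, and a gene was kept if its symbol was in the deposited count tables. All 40 of 40 listed symbols were found among the 24180 symbols of the tables. They were followed in RNA-seq libraries of 143B, an established human osteosarcoma cell line, in 4 groups of 3 libraries. The sample titles name the groups M-BSG-Hot, M-BSG, BSG and NC and equate them with 5-MNP-BSG (+), 5-MNP-BSG, BSG and Control, and the labels give a wild-type genotype for all 12 samples. From the series title BSG is a borosilicate bioactive glass, and the study concerns magnetic heating of osteosarcoma. A single treatment text on every sample, NC included, names 5-MNP-BSG as a magnetothermal material and an alternating magnetic field, so material, field, dose and exposure time are not resolved by group in the labels. All libraries come from 1 cell line, and the labels do not describe the 3 samples of a group as separate cultures. A p-value here therefore measures how far these 12 samples vary, and that variation may be technical.

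Before S phase, the origin recognition complex, CDC6 and CDT1 load the MCM2 to MCM7 helicase onto origins. CDC45 and the GINS complex then turn the loaded helicase into an active one, and polymerase alpha with primase starts each strand. Polymerases epsilon and delta extend the strands, held on DNA by the PCNA clamp. Many of these genes are transcribed together under E2F factors as cells pass from G1 into S phase, and their RNA is widely used as a sign of proliferation. In RNA from a bulk culture, fewer cells in S phase and less RNA per cell cannot be told apart.

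Each library held between 34434993 and 38163152 counts, and between 18827 and 19599 symbols had at least 1 count. The 40 genes took 0.450% to 0.486% of the counts, and the lowest count of any of them in any library was 501. The mesenchymal marker VIM had 1735 to 1866 FPKM in the group means, and SPARC, a matrix protein of bone, had 95.6 to 104 FPKM. The bone markers RUNX2, COL1A1 and ALPL had between 0.839 and 2.70 FPKM. The endothelial markers PECAM1, CDH5, VWF and KDR lay at or below 0.202 FPKM, and CD68 and EPCAM were present in every group. Of these lists edgeR called TWIST1, CD14 and ELF3, each higher in M-BSG and in BSG than in NC. There 3.22% and 5.5% of all genes were called higher. TWIST1 averaged 6.89 FPKM in M-BSG-Hot, 8.21 in M-BSG and 9.898 in BSG, against 6.23 in NC. CD14 averaged 0.368 FPKM in M-BSG-Hot, 0.682 in M-BSG and 1.07 in BSG, against 0.340 in NC, and ELF3 0.0161 in M-BSG-Hot, 0.0813 in M-BSG and 0.218 in BSG, against 0.00839 in NC. At these levels ELF3 had very few reads in NC and in M-BSG-Hot. It may have passed the count filter through its level in BSG, and its call carries that limit. In BSG the calls of these 3 genes were kept in all 12 fits without 1 library. In M-BSG all 3 were lost without NC 2, those of CD14 and ELF3 also without other libraries (edgeR adjusted p up to 0.186). Their part in the results below was not tested. Ribosomal protein genes took 9.96% of counts in M-BSG-Hot 3, 10.0% in M-BSG 1 and 11.4% in BSG 1, and 7.62% to 9.26% in the other 9 libraries. Of the 40 genes, 10 had their highest level of all libraries in M-BSG-Hot 3 and 2 their lowest, 3 and 2 did so in M-BSG 1, and 10 and 11 in BSG 1. The part of these library differences in the results was not tested either, and counts of calls are also given without the 3 libraries.

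RefSeq promoters of assembly GRCh38.p14 were matched for 34 of the 40 genes, as windows from 250 bases before to 50 bases after the gene start. An E2F octamer, spelled TTTCCCGC, TTTGGCGC, TTTCGCGC or TTTGCCGC and read on both strands, was present in 20 of 34 of these windows (58.8%) and in 1164 of 35116 windows of all genes (3.31%). The NF-Y box CCAAT, also read on both strands, was present in 21 of 34 (61.8%) and in 12155 of 35116 (34.6%). The octamers all begin with TTT and end with GC. A match is a run of letters and not a measured binding site. The last 100 bases before the start and the first 10 bases after it are shown for 6 genes: ORC6, which had the smallest p in BSG against NC and no octamer in its window, 4 genes with an octamer that had some of the largest differences from NC, and E2F1, which carries 2 octamers. Capitals mark the E2F octamer or, in ORC6, the CCAAT box.
ORC6: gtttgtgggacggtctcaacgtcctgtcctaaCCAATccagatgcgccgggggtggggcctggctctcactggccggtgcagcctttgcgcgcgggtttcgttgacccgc
GINS3: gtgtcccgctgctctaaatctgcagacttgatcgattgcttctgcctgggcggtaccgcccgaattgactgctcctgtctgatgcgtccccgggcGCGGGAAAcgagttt
POLE: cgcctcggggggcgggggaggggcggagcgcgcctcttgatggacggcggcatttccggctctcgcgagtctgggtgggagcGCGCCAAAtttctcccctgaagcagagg
PCNA: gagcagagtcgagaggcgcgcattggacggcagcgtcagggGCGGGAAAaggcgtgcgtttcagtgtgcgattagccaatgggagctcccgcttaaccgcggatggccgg
E2F1: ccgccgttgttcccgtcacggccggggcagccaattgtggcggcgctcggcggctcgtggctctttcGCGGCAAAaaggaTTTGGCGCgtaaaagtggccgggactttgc
E2F2: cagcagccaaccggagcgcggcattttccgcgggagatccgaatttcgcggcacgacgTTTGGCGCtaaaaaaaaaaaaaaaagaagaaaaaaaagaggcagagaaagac
They lie at chr16:46689559-46689668 on the plus strand (ORC6), chr16:58392371-58392480 on the plus strand (GINS3), chr12:132687333-132687442 on the minus strand (POLE), chr20:5126613-5126722 on the minus strand (PCNA), chr20:33686376-33686485 on the minus strand (E2F1) and chr1:23531224-23531333 on the minus strand (E2F2). The octamers begin 5 bases before the start in GINS3, 18 in POLE, 59 in PCNA, 42 in E2F2, and 33 and 20 in E2F1. In the comparison of BSG with NC the median log2 fold change was -0.03 over the 20 genes with an octamer and 0.05 over the 14 without one. In M-BSG against NC it was -0.04 with and 0.03 without, and in M-BSG-Hot against NC 0.01 with and -0.02 without. These medians are descriptions without a test.

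Levels were compared between genes by FPKM, counts per gene length and library total. In NC the highest were TYMS, which makes thymidylate, at 181 ± 4.87 FPKM, MCM7 at 149 ± 0.808 FPKM, PCNA at 133 ± 9.102 FPKM and MCM3 at 125 ± 1.43 FPKM (SD, n = 3). The lowest were RFC3 at 6.62 ± 0.229, E2F8 at 5.77 ± 0.542, POLA1 at 4.19 ± 0.337 and E2F2 at 3.703 ± 0.271 FPKM. TYMS, MCM7, PCNA and MCM3 held the first 4 places in NC, and the step from MCM3 to the next gene, MCM2 at 74.7 ± 1.01 FPKM, was larger than the spread between libraries, whereas PCNA and MCM3 were not separated beyond it. Neighbours further down mostly were not separated beyond their spread, for example CDC6 at 24.4 ± 0.605 and CDC45 at 24.1 ± 0.393 FPKM, or RFC2 at 33.8 ± 1.45 and PRIM1 at 34.5 ± 0.649 FPKM. Subunits that work in equal numbers had unequal FPKM. Within the MCM helicase the NC means ran from 37.4 ± 1.03 FPKM for MCM6 to MCM7. Within the clamp loader they ran from RFC3 to 54.1 ± 1.33 FPKM for RFC4. This second gap came from the length divisor, 11245 bases for RFC3 and 1365 for RFC4. As CPM, read counts scaled for library size and composition, the NC means were 71.9 for RFC3 and 71.2 for RFC4. The low place of RFC3 by FPKM rests on that length too. MCM6 and MCM7 also differed by CPM, at 135 and 433 in NC. Whether these lengths match the RNA of these cells was not tested. TK1, the cytosolic thymidine kinase, had 10.8 ± 0.549 FPKM in NC. 143B is commonly distributed as a line without thymidine kinase activity, which the labels do not mention and which a count of RNA does not measure.

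**Figure D1:**
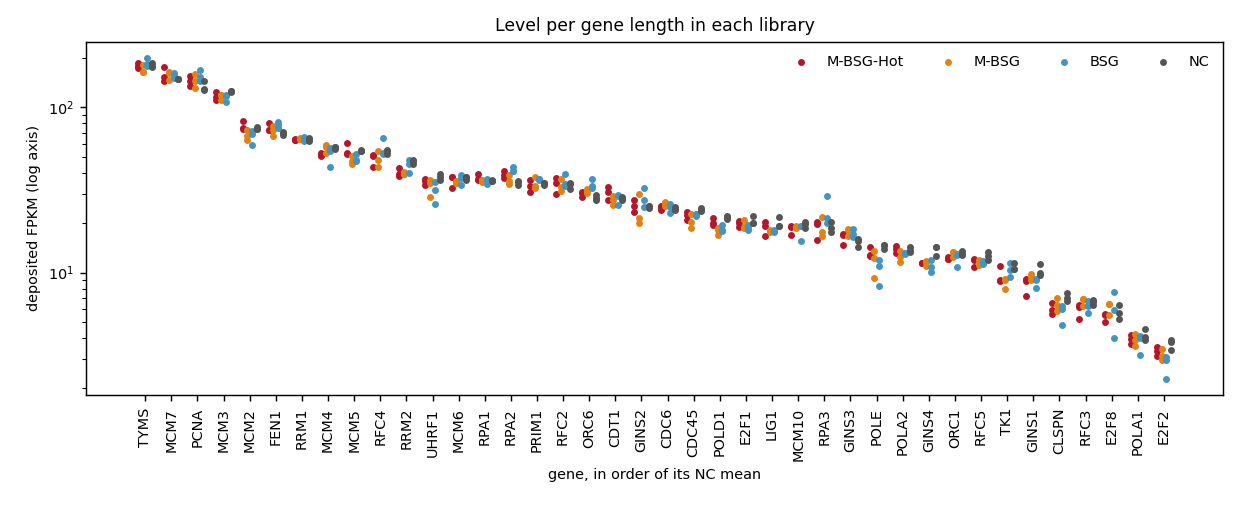
Deposited FPKM (log axis) of the 40 genes in each of the 12 libraries, ordered by their NC mean, with 1 point per library and the groups M-BSG-Hot, M-BSG, BSG and NC side by side. Levels span from TYMS to E2F2, and for every gene the 4 groups sit close together on this scale.

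Few of the 40 genes passed the test in any comparison. Genes were called at a Benjamini-Hochberg adjusted p under 0.05 from edgeR's quasi-likelihood test over 15407 genes, and CPM are read counts scaled for library size and composition (edgeR's TMM factors). In BSG against NC 2 of the 40 genes were higher, ORC6 and RPA2, beside 5.5% of all genes tested, and 0 were lower, beside 6.22%. Another 9 had an unadjusted p under 0.05, for 11 in all (27.5%), beside 30.5% of all genes. The libraries of BSG lay wholly above those of NC for 11 of the 40 genes and wholly below for 8, beside 2788 and 3172 of all 15407 genes. limma also called ORC6 and RPA2 alone, beside 11.6% of all genes in either direction, while DESeq2 called 5 higher (ORC6, GINS3, PCNA, RPA2 and FEN1) and 3 lower (GINS4, POLE and E2F2), which is 8 of 40 beside 18.2% of all genes. Without BSG 1, M-BSG 1 and M-BSG-Hot 3 edgeR called 4 higher (ORC6, GINS3, PCNA and RPA2) and 2 lower (GINS4 and POLE), which is 6 of 40 beside 16.3% of all genes. With library size as the only scaling it called 2 higher and 3 lower, beside 574 and 1346 of all genes, against 847 and 959 of all genes with TMM, in either direction 12.5% of all genes. With no count filter it called POLE and E2F2 lower beside the same 2 higher (8.94% of all genes in either direction), and with a minimum count of 50 E2F2 (12%). Without NC 2 or without NC 3 it called 0 in either direction, beside 5.47% and 5.58% of all genes. Without BSG 2 it called 4 higher, adding PCNA and RPA3, and POLE lower, beside 14.9% of all genes in either direction, and without BSG 3 it called 2 higher, and GINS4 and E2F2 lower, beside 8.12%. Without M-BSG 1 it called 5 higher, adding GINS3, PCNA and FEN1, and POLE and E2F2 lower, beside 16.3%, and without M-BSG 2 it called 2 higher and POLE lower, beside 11.5%.

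In M-BSG against NC edgeR called 0 of the 40 genes higher, beside 3.22% of all genes, and 0 lower, beside 3.13%, with 6 (15%) at an unadjusted p under 0.05, beside 18.3% of all genes. limma called 0 (6.2% of all genes), DESeq2 called GINS3 higher and POLD1 lower (9.19% of all genes), and edgeR with library size scaling called POLD1 lower, beside 406 of all genes higher and 671 lower (496 and 483 with TMM), in either direction 6.99%. Without BSG 1, M-BSG 1 and M-BSG-Hot 3 edgeR called 6 lower: CDC45, GINS2, GINS4, POLD1, RRM2 and TK1. In that fit it called 12.6% of all genes in either direction, 1047 of them higher and 925 lower. In M-BSG-Hot against NC edgeR called 0 higher, beside 1.4% of all genes, and 0 lower, beside 3.51%, with 5 (12.5%) at an unadjusted p under 0.05, beside 16.8% of all genes. limma called 0 (4.86% of all genes) and DESeq2 called RPA2 higher (7.54% of all genes), as did edgeR without the 3 libraries (8.42% of all genes). With library size scaling it called 0, beside 149 of all genes higher and 673 lower (215 and 541 with TMM), in either direction 5.34%. In M-BSG against BSG edgeR called 0 higher, beside 0% of all genes, and 0 lower, beside 0.13%, with 4 (10%) at an unadjusted p under 0.05, beside 6.76% of all genes. There limma and DESeq2 called 0, beside 0.104% and 0.325% of all genes. Without the 3 libraries edgeR called GINS2 lower, beside 0.712% of all genes in either direction. In M-BSG-Hot against M-BSG edgeR, limma and DESeq2 all called 0 of the 40, beside 0.0974% of all genes higher and 0.597% lower by edgeR, 0.649% in either direction by limma and 1.79% by DESeq2. By edgeR 3 (7.5%) had an unadjusted p under 0.05, beside 8.84% of all genes. The comparisons with NC share the NC libraries, so their values are set side by side here and not read as separate evidence.

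No point estimate of the 40 genes reached 1.5-fold in any of the 5 comparisons. In BSG against NC the median log2 fold change of the 40 genes was 0.00, with 20 genes above 0 and 20 below, beside a median of -0.02 over all genes. It was -0.03 in M-BSG against NC (all genes -0.01), 0.00 in M-BSG-Hot against NC (all genes 0.00), -0.02 in M-BSG against BSG (all genes 0.00) and 0.02 in M-BSG-Hot against M-BSG (all genes 0.00). With library size scaling the median of the 40 genes was -0.07 in M-BSG-Hot, -0.09 in M-BSG and -0.08 in BSG against NC, and that of all genes -0.07, -0.07 and -0.09. The widest range was that of BSG against NC, from -0.39 for POLE to 0.41 for RPA3. A p that misses the threshold does not show that levels are alike, so 95% intervals of each gene's difference were set against a bound of 1.5-fold either way. In M-BSG-Hot against NC, in M-BSG against NC and in M-BSG-Hot against M-BSG, the intervals of all 40 genes lay inside it. In BSG against NC 37 of 40 did, with GINS2, POLE and RPA3 reaching beyond, and in M-BSG against BSG 38 of 40 did, with GINS2 and RPA3 reaching beyond. The intervals of all 40 genes lay inside 2-fold in all 5 comparisons. They are not adjusted for the number of genes.

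**Figure D2:**
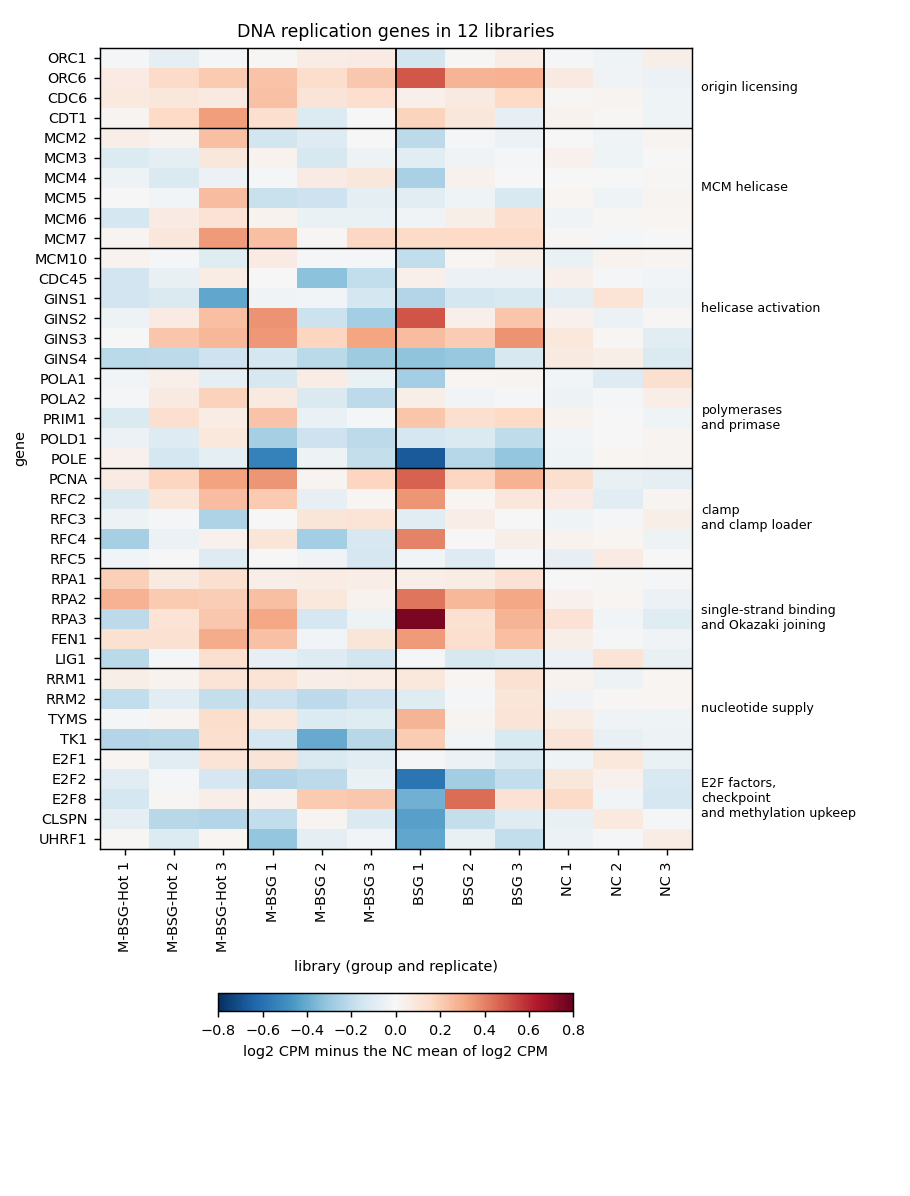
Log2 CPM of each of the 40 genes in each library minus the mean log2 CPM of that gene in NC, with genes grouped by role down the page and libraries in columns. Red is above NC and blue below. BSG 1 holds many of the darkest cells in both directions, among them RPA3 and ORC6 (above) and POLE and E2F2 (below).

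**Figure D3:**
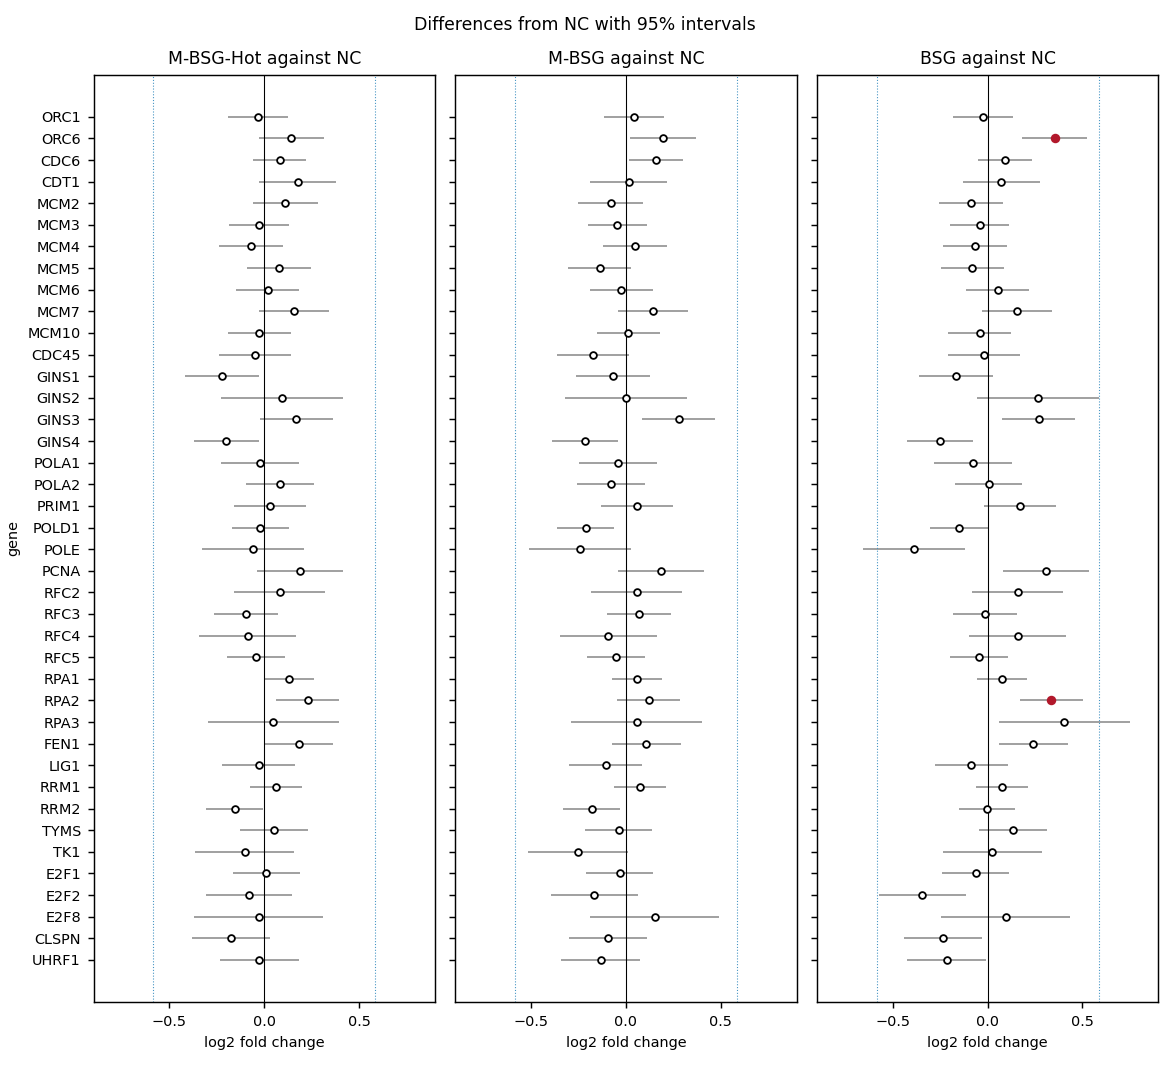
Log2 fold changes of the 40 genes against NC with 95% intervals, for M-BSG-Hot, M-BSG and BSG from left to right. Filled red points passed edgeR's test at an adjusted p under 0.05, which were ORC6 and RPA2 in BSG, and dotted lines mark 1.5-fold in either direction.

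Among the licensing factors, ORC6, the smallest subunit of the origin recognition complex, rose in BSG. Its CPM was 50.6, 53.7 and 55.9 in M-BSG-Hot, 56.6, 53.4 and 56.1 in M-BSG, 68.3, 58.5 and 58.6 in BSG, against 50.8, 47.5 and 46.9 in NC. The BSG libraries were the 3 highest, all 3 M-BSG libraries also lay above NC, and the lowest M-BSG-Hot library fell among the NC libraries. The level was 61.8 ± 5.62 CPM in BSG and 48.4 ± 2.103 CPM in NC (SD, n = 3 each), a log2 fold change of 0.35 (SE 0.0803, 95% interval 0.18 to 0.53 on the log2 scale, edgeR adjusted p = 0.0122). The call was lost without NC 2 (edgeR adjusted p = 0.0612) and without NC 3 (edgeR adjusted p = 0.0651). With the gene length trend of each library removed the log2 fold change was 0.20 and the call was kept. It was 0.19 in M-BSG against NC and 0.14 in M-BSG-Hot against NC, neither called. CDC6, the ATPase that loads the helicase, lay above the NC libraries in all 9 others, yet by little, with log2 fold changes of 0.08 in M-BSG-Hot, 0.16 in M-BSG and 0.09 in BSG, none called. ORC1, the ATPase subunit of the origin complex, ranged over 37.2 to 43.1 CPM in the 12 libraries, and CDT1, the loading partner of CDC6, over 67.5 to 91.6 CPM, with overlapping groups in all 5 comparisons except ORC1 in M-BSG-Hot against M-BSG.

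The MCM2 to MCM7 helicase had 0 of 6 subunits called in any of the 5 comparisons by edgeR. The shares of all genes called were largest in BSG against NC, at 5.5% higher and 6.22% lower. At such shares 0 of 6 does not set the helicase apart from other genes. MCM5 had the smallest p of the 40 genes in M-BSG-Hot against M-BSG. Its CPM was 217, 214 and 257 in M-BSG-Hot, 192, 194 and 206 in M-BSG, 205, 212 and 199.5 in BSG, against 219, 212 and 220.1 in NC. M-BSG-Hot 3 was the highest library, and the other 2 M-BSG-Hot libraries lay just above the highest M-BSG library. This gave a log2 fold change of 0.22 (SE 0.0781, edgeR adjusted p = 0.366), and of 0.12 without M-BSG-Hot 3. For MCM2 the CPM was 263, 259 and 300.3 in M-BSG-Hot, 229.7, 236 and 255 in M-BSG, 219.6, 252 and 246 in BSG, against 255, 249.6 and 258 in NC, again with M-BSG-Hot 3 highest. All 3 M-BSG-Hot libraries lay above the M-BSG libraries, with a log2 fold change of 0.19 (SE 0.0795, edgeR adjusted p = 0.491). It was 0.12 without M-BSG-Hot 3 and 0.09 without BSG 1, M-BSG 1 and M-BSG-Hot 3, where that of MCM5 was 0.11. MCM7, whose gene also hosts the microRNAs MIR106B, MIR93 and MIR25, had the 9 libraries of the other groups above the 3 NC libraries, at log2 fold changes of 0.16 in M-BSG-Hot, 0.14 in M-BSG and 0.16 in BSG, none called. MCM3 ranged over 375 to 438 CPM, MCM4 over 192 to 245 CPM and MCM6 over 123 to 148 CPM in the 12 libraries. In BSG against NC the log2 fold change was 0.16 for MCM7 and -0.08 for MCM5, and the BSG and NC libraries did not overlap for either.

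The GINS subunits, which form the active helicase with MCM2 to MCM7 and CDC45, did not all lie on one side of NC. The CPM of GINS3 was 34.05, 39.6 and 40.8 in M-BSG-Hot, 43.1, 38.2 and 42.1 in M-BSG, 40.2, 39.1 and 43.4 in BSG, against 35.9, 34.2 and 31.8 in NC. All BSG and M-BSG libraries were above the NC libraries, and 1 M-BSG-Hot library was not. Its log2 fold change was 0.28 (SE 0.0894, edgeR adjusted p = 0.0913) in M-BSG and 0.27 in BSG, and DESeq2 called it higher in both. The CPM of GINS4 was 43.7, 43.8 and 45.1 in M-BSG-Hot, 45.9, 43.7 and 41.5 in M-BSG, 40.5, 41.1 and 46.4 in BSG, against 53.2, 52.4 and 46.7 in NC. All 9 libraries of the other groups lay below the lowest NC library. The gene overlaps an antisense RNA, GPAT4-AS1. Against NC its log2 fold change was -0.20 (SE 0.0807, edgeR adjusted p = 0.215) in M-BSG-Hot and -0.22 (SE 0.0808, edgeR adjusted p = 0.156) in M-BSG. In BSG it was -0.25 (SE 0.0808, edgeR adjusted p = 0.06002). GINS1 had a CPM of 31.2, 31.9 and 25.95 in M-BSG-Hot, 33.9, 34.04 and 31.4 in M-BSG, 29.4, 31.4 and 31.8 in BSG, against 32.98, 37.3 and 33.6 in NC. Every M-BSG-Hot and every BSG library lay below every NC library. Its log2 fold change was -0.22 (SE 0.0911, edgeR adjusted p = 0.217) in M-BSG-Hot against NC, -0.13 without M-BSG-Hot 3 and -0.14 without BSG 1, M-BSG 1 and M-BSG-Hot 3. In BSG against NC it was -0.17, not called. GINS2, which overlaps GSE1, had a CPM of 61.6, 66.2 and 74.6 in M-BSG-Hot, 81.1, 56.2 and 52.3 in M-BSG, 89.5, 65 and 73.6 in BSG, against 64.7, 61.4 and 63.8 in NC. BSG 1 and M-BSG 1 were the highest of all, and the groups other than BSG overlapped NC. CDC45 ranged over 44.7 to 58.6 CPM and MCM10, which helps fire the loaded helicase, over 75.2 to 90.1 CPM in the 12 libraries, and neither was called by edgeR with all libraries.

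Of the polymerases, POLE, the catalytic subunit of the leading-strand enzyme, had the lowest log2 fold change of the 40 genes in BSG against NC. Its CPM was 126, 112 and 117 in M-BSG-Hot, 84.4, 119 and 108 in M-BSG, 77.3, 105 and 99.2 in BSG, against 119.9, 124 and 125 in NC. BSG 1 and M-BSG 1 were the lowest libraries, every M-BSG and every BSG library lay below every NC library, and the M-BSG-Hot libraries overlapped NC. In BSG the log2 fold change was -0.39 (SE 0.125, edgeR adjusted p = 0.0588), with a 95% interval of -0.66 to -0.12. POLD1, the catalytic subunit of the lagging-strand enzyme, had a CPM of 77.5, 74.7 and 85.03 in M-BSG-Hot, 66.7, 71.6 and 69.3 in M-BSG, 73.1, 73.9 and 69.7 in BSG, against 79.1, 79.9 and 81.5 in NC. Here the BSG libraries lay below the NC libraries, at a log2 fold change of -0.15, not called. The M-BSG libraries lay below both the M-BSG-Hot and the NC libraries. The difference was 0.19 (SE 0.0705, edgeR adjusted p = 0.385) on the log2 scale in M-BSG-Hot against M-BSG, which was 0.11 without BSG 1, M-BSG 1 and M-BSG-Hot 3, and -0.21 (SE 0.0705, edgeR adjusted p = 0.104) in M-BSG against NC. The call in M-BSG against NC was made by DESeq2 (adjusted p = 0.0493) and by edgeR with library size scaling (adjusted p = 0.0367), with the length trend removed (0.0437) or without the 3 libraries (0.0481). Over all alternatives its adjusted p from edgeR, limma or DESeq2 ran from 0.0367 to 0.298. POLA1, the catalytic subunit of polymerase alpha, ranged over 30.9 to 40.8 CPM in the 12 libraries and its partner POLA2 over 59.9 to 78.8 CPM. PRIM1, the primase that lays down the RNA primer, ranged over 43.8 to 55.5 CPM, with the BSG libraries above NC and the other groups overlapping it.

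PCNA, the ring that holds polymerases on DNA, had a CPM of 188, 202 and 225 in M-BSG-Hot, 229.9, 182 and 203 in M-BSG, 249, 202 and 217 in BSG, against 196, 173 and 171 in NC. The 3 BSG libraries lay above the 3 NC libraries and the other groups overlapped NC. The log2 fold change in BSG against NC was 0.31 (SE 0.106, edgeR adjusted p = 0.0729), and it was called by DESeq2. PCNA has 4 named pseudogenes in RefSeq and an antisense RNA, PCNA-AS1, so reads may be shared. The clamp loader subunits RFC2, RFC3, RFC4 and RFC5 ranged over 55.5 to 76.7 CPM, 60.7 to 77.4 CPM, 58.97 to 93.9 CPM and 49.9 to 57.4 CPM in the 12 libraries. None of them was called by edgeR, limma or DESeq2 in any comparison, beside at most 18.2% of all genes (DESeq2, BSG against NC). RFC2 and RFC4 had their highest level in BSG 1, while RFC3 had its lowest in M-BSG-Hot 3.

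RPA2, the middle subunit of the protein that coats single-stranded DNA, rose in BSG. Its CPM was 80.9, 76.96 and 76.4 in M-BSG-Hot, 78.8, 70.6 and 67.8 in M-BSG, 89.7, 80.2 and 82.4 in BSG, against 68.1, 67.2 and 64.5 in NC. Every BSG and every M-BSG-Hot library lay above every NC library, whereas M-BSG overlapped NC. The level was 84.1 ± 4.93 CPM in BSG and 66.6 ± 1.89 CPM in NC (SD, n = 3 each), a log2 fold change of 0.34 (SE 0.0766, 95% interval 0.17 to 0.50, edgeR adjusted p = 0.0123). The call was lost without NC 2 (edgeR adjusted p = 0.0506), without NC 3 (edgeR adjusted p = 0.0677) and with the gene length trend removed, where the log2 fold change was 0.20 (edgeR adjusted p = 0.0528). Other differences were 0.23 (SE 0.0766, edgeR adjusted p = 0.121) on the log2 scale in M-BSG-Hot against NC and -0.22 (SE 0.0765, edgeR adjusted p = 0.635) in M-BSG against BSG, the second of them -0.11 with the length trend removed. RPA2 has 3 named pseudogenes in RefSeq. RPA3, the small subunit, had a CPM of 31.7, 39.5 and 42.5 in M-BSG-Hot, 45.4, 33.4 and 35.6 in M-BSG, 61.7, 39.8 and 44.1 in BSG, against 39.7, 36.03 and 34.3 in NC. BSG 1 stood far above the rest, and the groups other than BSG overlapped NC. Its log2 fold change in BSG against NC was 0.41 (SE 0.161, edgeR adjusted p = 0.1102), with the widest interval of the 40 genes, 0.06 to 0.75. The RPA3 gene overlaps UMAD1, so its counts are uncertain where strand was not used. RPA1, the large subunit, lay above NC in all 9 other libraries, at log2 fold changes of 0.13 in M-BSG-Hot, 0.06 in M-BSG and 0.08 in BSG, none called.

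Of the 5 genes of single-strand binding and Okazaki fragment joining, 4 had a log2 fold change above 0 in BSG against NC, beside 7390 of all 15407 genes. Their median was 0.24 with 1 called higher, beside 5.5% of all genes. Against NC 4 of the 5 were also above 0 in M-BSG-Hot and in M-BSG, beside 7775 and 7489 of all genes. In M-BSG against BSG all 5 were below 0, beside 7788 of all genes, with a median of -0.14 and 0 called. At an unadjusted p under 0.05 there were 2, beside 6.76% of all genes. With the length trend removed LIG1 moved from -0.02 to 0.008, FEN1 from -0.14 to -0.03 and RPA2 from -0.22 to -0.11. RPA3 moved from -0.35 to -0.24, while RPA1 went from -0.02 to -0.07. FEN1, the nuclease that trims Okazaki fragments, had a CPM of 148, 148 and 167 in M-BSG-Hot, 159.7, 134 and 146 in M-BSG, 172, 149.5 and 161 in BSG, against 140.4, 134 and 133 in NC. The BSG and M-BSG-Hot libraries lay above the NC libraries and M-BSG overlapped them. In BSG the log2 fold change was 0.24 (SE 0.0847, edgeR adjusted p = 0.0766). LIG1, the ligase that joins the trimmed fragments, ranged over 56.1 to 71.1 CPM in the 12 libraries and was not called in any comparison by edgeR, limma or DESeq2.

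**Figure D4:**
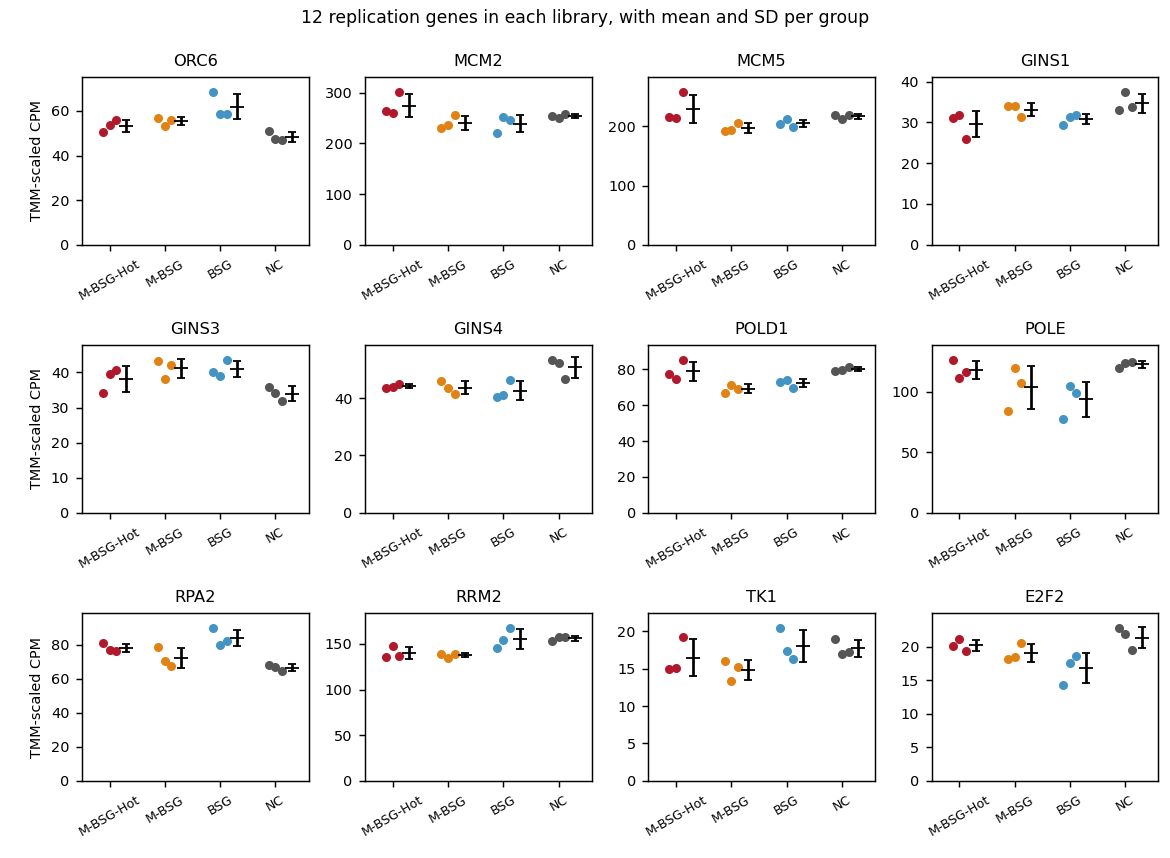
Composition-scaled CPM of 12 of the 40 genes in each library (points), with the mean and SD of each group beside them (bars), in the order M-BSG-Hot, M-BSG, BSG and NC. ORC6 and RPA2 are highest in BSG, POLE and E2F2 are lowest in BSG, and GINS4 is highest in NC.

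In nucleotide supply all 4 genes had a log2 fold change below 0 in M-BSG against BSG, beside 7788 of all 15407 genes. Their median was -0.17 with 0 called (2 at an unadjusted p under 0.05, beside 6.76% of all genes). RRM1 was below 0 by only -0.002 and lay at 0.02 with the length trend removed, where TYMS moved from -0.17 to -0.06. RRM2, the S-phase subunit of ribonucleotide reductase, had a CPM of 136, 147 and 137 in M-BSG-Hot, 139, 135 and 139 in M-BSG, 146, 154 and 167 in BSG, against 153, 157 and 158 in NC. All M-BSG-Hot and M-BSG libraries lay below the NC libraries, while BSG overlapped NC. RRM2 has 3 named pseudogenes in RefSeq. Its log2 fold change was -0.16 in M-BSG-Hot against NC, -0.18 in M-BSG against NC and -0.18 (SE 0.0697, edgeR adjusted p = 0.635) in M-BSG against BSG, whose libraries did not overlap. TK1, which salvages thymidine, had a CPM of 15, 15.1 and 19.3 in M-BSG-Hot, 16.01, 13.3 and 15.2 in M-BSG, 20.4, 17.4 and 16.2 in BSG, against 18.9, 16.98 and 17.2 in NC. The M-BSG libraries lay below both the BSG and the NC libraries, and M-BSG-Hot overlapped NC. In M-BSG against BSG the log2 fold change was -0.28 (SE 0.122, edgeR adjusted p = 0.635), -0.17 without BSG 1 and -0.15 with the length trend removed. TYMS, which makes the same nucleotide anew, ranged over 291 to 379 CPM in the 12 libraries with its highest level in BSG 1. Its gene overlaps ENOSF1 and TYMSOS. RRM1, the large reductase subunit, ranged over 216 to 242 CPM.

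Of the 5 E2F, checkpoint and methylation genes, 4 had a log2 fold change below 0 against NC in each of M-BSG-Hot, M-BSG and BSG. The counts over all 15407 genes were 7632, 7918 and 8017. Medians were -0.03, -0.10 and -0.22, with 0 called by edgeR. At an unadjusted p under 0.05 there were 0, 0 and 3, beside 16.8%, 18.3% and 30.5% of all genes. In M-BSG against BSG all 5 lay above 0, beside 7619 of all genes, with a median of 0.08 and 0 called (0 at an unadjusted p under 0.05, beside 6.76%). E2F2, an activator of S-phase genes, had a CPM of 20.1, 21.1 and 19.4 in M-BSG-Hot, 18.1, 18.4 and 20.5 in M-BSG, 14.2, 17.6 and 18.5 in BSG, against 22.7, 21.8 and 19.5 in NC. The BSG libraries lay below the NC libraries with BSG 1 lowest, and the M-BSG-Hot and M-BSG libraries overlapped NC. In BSG the log2 fold change was -0.35 (SE 0.107, edgeR adjusted p = 0.0509), with a 95% interval of -0.58 to -0.12. Over all alternatives its adjusted p ran from 0.0267 by DESeq2 to 0.193 by edgeR without BSG 1, and it passed edgeR's test with library size scaling (0.0322), with no count filter (0.0483), with a minimum count of 50 (0.04897), without BSG 3 (0.0439) or without M-BSG 1 (0.0462). The related activator E2F1 ranged over 49.1 to 57.6 CPM in the 12 libraries with overlapping groups throughout, and E2F8, a repressor of the same targets, over 16.9 to 30.03 CPM. CLSPN, which passes the replication checkpoint signal from ATR to CHK1, had a CPM of 60.5, 54.5 and 54.1 in M-BSG-Hot, 55.6, 64.6 and 58.8 in M-BSG, 47.1, 55.7 and 59.5 in BSG, against 60.96, 67.1 and 63.1 in NC. It lay below NC in every BSG and every M-BSG-Hot library, with log2 fold changes of -0.18 in M-BSG-Hot, -0.10 in M-BSG and -0.24 in BSG, none called. UHRF1, which brings the maintenance methyltransferase to new DNA, had a CPM of 187, 173 and 188 in M-BSG-Hot, 149.8, 176 and 183 in M-BSG, 139, 178 and 162 in BSG, against 180.1, 184 and 193 in NC. Its BSG libraries lay below NC and BSG 1 was lowest, with a log2 fold change of -0.22 (SE 0.0969, edgeR adjusted p = 0.149).

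The differences of the 40 genes in BSG against NC and in M-BSG against BSG moved with gene length, taken as the length behind the deposited FPKM. In BSG against NC the Spearman correlation of log2 fold change with length was -0.68 over the 40 genes and -0.38 over all 15407 genes. In M-BSG against BSG it was 0.74 over the 40 and 0.47 over all genes. It was -0.35 over the 40 and -0.23 over all genes in M-BSG-Hot against NC, and -0.28 and -0.12 in M-BSG against NC. In M-BSG-Hot against M-BSG it was -0.04 over the 40 and -0.13 over all genes. These are correlations across genes measured in the same libraries, which are not independent replicates. The 10 shortest genes, from RFC4 at 1365 bases to RPA3 at 2020, had a median log2 fold change of 0.21 in BSG against NC and all 10 lay above 0. They include ORC6 and RPA2. The 10 longest, from MCM10 at 4575 bases to RFC3 at 11245, had a median of -0.06 with 7 below 0, and include POLE, E2F2, CLSPN and UHRF1. With the length trend of each library removed the medians were 0.06 for the shortest and 0.04 for the longest genes, and the correlation over the 40 was -0.17. edgeR then called ORC6 higher and GINS4 and POLE lower in BSG against NC, and GINS3 higher and POLD1 and TK1 lower in M-BSG against NC, which is 3 of 40 (7.5%) in each, beside 15.4% and 9.63% of all genes in either direction. Whether the trend is technical was not tested.

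**Figure D5:**
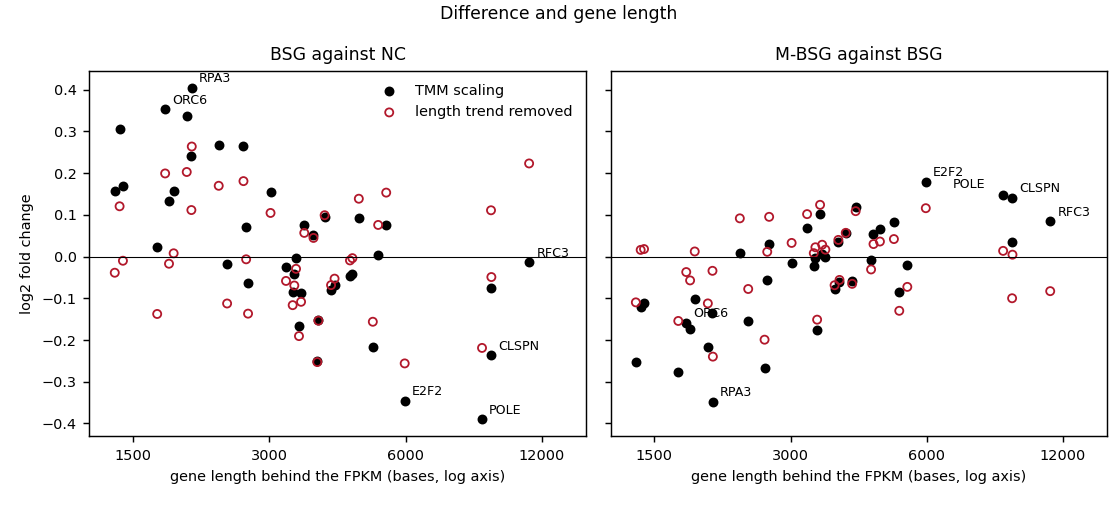
Log2 fold change of each of the 40 genes against gene length in bases (log axis), in BSG against NC (left) and M-BSG against BSG (right). Filled points use composition scaling alone and open points have the length trend of each library removed. Short genes such as RPA3 and ORC6 lie high and long genes such as POLE and CLSPN low on the left, the order is turned round on the right, and the open points are flatter in both.

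Other genes of the same processes were counted from lists. Of 33 other replisome and licensing genes, edgeR called 4 higher (12.1%) and 2 lower (6.06%) in BSG against NC, beside 5.5% and 6.22% of all genes. Their median log2 fold change was 0.07 beside -0.02 for all genes. TIPIN, a partner of TIMELESS at the fork, rose by 0.41 on the log2 scale (edgeR adjusted p = 0.00532), and POLE3, an accessory subunit of polymerase epsilon, by 0.33 (edgeR adjusted p = 0.00869). ORC5, another origin complex subunit, rose by 0.42 (edgeR adjusted p = 0.0145), and DBF4, the activator of the CDC7 kinase, by 0.35 (edgeR adjusted p = 0.02199). Its relative DBF4B had a log2 fold change of -0.50 (edgeR adjusted p = 0.00547) and TICRR, which helps fire origins, one of -0.57 (edgeR adjusted p = 0.0203). The calls of ORC5, DBF4 and TICRR were lost without NC 2, at edgeR adjusted p = 0.0823, 0.0945 and 0.0874, and those of DBF4 and TICRR also without NC 3 or BSG 1. In M-BSG against NC TIPIN (0.29) and POLE3 (0.34) were higher (6.06% of the 33) and DBF4B (-0.53) was lower (3.03%). The shares of all genes there were 3.22% and 3.13%. Without NC 2 the edgeR adjusted p was 0.178 for TIPIN, whose call was kept only without BSG 1 or M-BSG-Hot 3 among the 12 fits without 1 library, and 0.0592 for POLE3, whose call was also lost without NC 1 or M-BSG 3. In M-BSG-Hot against NC edgeR called 0 of these 33 genes, beside 1.4% of all genes higher and 3.51% lower. At an unadjusted p under 0.05 there were 6 of the 33, beside 16.8% of all genes. Of 18 other genes of nucleotide supply edgeR called CAD alone, which starts pyrimidine synthesis, lower in BSG than in NC (5.56%, beside 6.22% of all genes). Its log2 fold change was -0.53 (edgeR adjusted p = 0.0205). The call was lost without any 1 NC library or BSG 1 (edgeR adjusted p up to 0.0764). In M-BSG-Hot and in M-BSG against NC edgeR called 0 of the 18, beside 4.91% and 6.35% of all genes in either direction. At an unadjusted p under 0.05 there were 2 and 1, beside 16.8% and 18.3% of all genes.

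Of 28 genes that control entry into S phase, edgeR called 4 higher (14.3%) and 2 lower (7.14%) in BSG against NC, beside 5.5% and 6.22% of all genes. Their median log2 fold change was -0.04. CDKN1A, the p21 inhibitor of cyclin-dependent kinases, rose by 0.66 (edgeR adjusted p = 0.000835), and CCNE1, the cyclin that drives the G1 to S step, by 0.53 (edgeR adjusted p = 0.002497). FBXO5, an inhibitor of the anaphase-promoting complex, rose by 0.43 (edgeR adjusted p = 0.00121). These 3 calls were kept in all 12 fits without 1 library. SKP2, which targets the inhibitor p27 for degradation, had a log2 fold change of -0.35 (edgeR adjusted p = 0.0241). The rest of the called genes were the repressors E2F6 (0.32) and RBL2 (-0.48), named after their values were seen, to complete the count. In M-BSG against NC CDKN1A (0.64), E2F6 (0.48), FBXO5 (0.36) and CDC25A (0.31) were higher, and SKP2 (-0.40) and CDKN1B (-0.40) lower. That is 14.3% and 7.14% of the 28, beside 3.22% and 3.13% of all genes. In M-BSG-Hot against NC, where 1.4% of all genes were higher and 3.51% lower, edgeR called SKP2 alone (-0.40, edgeR adjusted p = 0.0185). Its call was lost without NC 1, NC 2, NC 3, M-BSG-Hot 2 or M-BSG-Hot 3 in M-BSG-Hot (edgeR adjusted p up to 0.0916), without NC 1, NC 3 or M-BSG 3 in M-BSG (up to 0.08003), and without NC 1, NC 2, NC 3, BSG 1 or BSG 3 in BSG (up to 0.101). In BSG the call of E2F6 was lost without NC 1, NC 2, NC 3, BSG 1 or BSG 2 (edgeR adjusted p up to 0.106), and that of RBL2 without NC 2, NC 3 or BSG 1 (up to 0.1105). In M-BSG those of CDC25A and CDKN1B were lost without NC 1, NC 2, NC 3, M-BSG 2 or M-BSG 3 (edgeR adjusted p up to 0.117 and 0.135). In M-BSG against BSG and in M-BSG-Hot against M-BSG edgeR called 0 genes of any of these 3 lists, beside 0.13% and 0.694% of all genes in either direction. At an unadjusted p under 0.05 there were 2 replisome, 2 nucleotide supply and 1 S-phase entry genes in M-BSG against BSG, beside 6.76% of all genes. In M-BSG-Hot against M-BSG there were 5, 1 and 4, beside 8.84%.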

How the data were processed

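RNA was extracted with an RNeasy kit and made into libraries with a SMARTER kit for mRNA, per the labels' protocols. The authors deposited whole, unnormalised read counts per gene symbol for every sample, and FPKM beside them. The deposited FPKM values equal the deposited counts divided by a gene length and the library total, for 100% of values within a relative tolerance of 1e-06. Aligner, counting program, annotation and use of strand were not given in the sources used here. GEO's record of the submitters' processing notes names GRCm38 and mm10, both mouse builds, while the tables hold human symbols, so no coordinates were taken from them. Of the 40 genes, 20 overlap another gene and 9 have a named pseudogene in RefSeq (GRCh38.p14), and reads there may be shared.

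The deposited counts were tested with edgeR 4.0.16 in R 4.3.3: TMM scaling (factors 0.951 to 1.05), filterByExpr with a minimum count of 10, and 1 quasi-likelihood model over the 12 libraries, in which each group has its mean. The filter kept 15407 genes, all 40 members included. Adjusted p-values are Benjamini-Hochberg values over all genes in a comparison, called under 0.05. The fits were run on simulated counts whose set changes were all larger than those of the 40 genes. That check therefore does not bear on differences of this size. An SE is the log2 fold change over the root of the F statistic, and 95% intervals use it. Alternatives were limma 3.58.1 (trend, log2 CPM, prior count 2), DESeq2 1.42.0, library size scaling, no count filter or a minimum of 50, removal of a lowess trend on gene length (span 0.3), a replicate block, and leaving out libraries. All 40 members are given by values, with full statistics for those called or, in a comparison with fewer than 3 called, for the smallest p up to 3. PCNA, POLE, GINS4, RPA3, FEN1 and UHRF1 in BSG were added after their values were seen. From other lists the 4 smallest adjusted p among called genes were named, and further called genes after their values were seen, to complete a count. Members and lists were chosen with earlier results of these data known.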

Additional observations from a re-analysis of the deposited data

How the results depend on the processing

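Of 300 recomputed counts and medians, 267 stayed within 1.5 times the count or within 0.0409 on the log2 scale (the SD between replicates), and 33 moved. Most counts of the main fit were 0, so many of the 267 set 0 beside 0. Every main median lay within 0.0409 of 0, so a median could change sign and still count as unmoved. In M-BSG against NC it went from -0.0287 to 0.00163 without M-BSG 2. Some fits also left out a library outside the comparison. The 267 therefore says little about stability. In BSG against NC the number of the 40 genes called higher was 5 with DESeq2, 1 with the length trend removed and 4 without BSG 1, M-BSG 1 and M-BSG-Hot 3, and 0 to 5 without 1 library. The number lower was 3 with library size scaling, 3 with DESeq2, 2 with no count filter, 1 with a minimum count of 50, 2 with the length trend removed, 2 without the 3 libraries, and 0 to 2 without 1 library. In M-BSG against NC it was 1 higher with DESeq2 and 1 with the length trend removed, and 1 lower with library size scaling, 1 with DESeq2, 2 with the length trend removed and 6 without the 3 libraries. In M-BSG-Hot against NC 1 was higher with DESeq2 and 1 without the 3 libraries, and in M-BSG against BSG 1 was lower without them. With library size scaling the median log2 fold change of the 40 genes was -0.0724 in M-BSG-Hot, -0.0885 in M-BSG and -0.0777 in BSG against NC. Without 1 library it ran from -0.00594 to 0.0701 in M-BSG-Hot against M-BSG and from -0.00929 to 0.0418 in M-BSG-Hot against NC. Of 300 recomputed values of named genes 0 changed direction, 15 gained a call and 5 lost one. These genes were picked for a call or a small p in these data, so few changes of direction could arise. Among all 40 genes more changed direction. In M-BSG against BSG 10 did so without BSG 1, and 10 with the length trend removed. In M-BSG-Hot against M-BSG 9 did so without M-BSG-Hot 3, and in BSG against NC 8 without BSG 1. The cause of these shifts was not tested. Whether the replicate numbers of the titles pair the samples was not settled. Deviations of same-numbered libraries from their group means correlated between -0.287 and 0.408. Among NC, BSG and M-BSG all were above 0, from 0.0356 to 0.408, and with M-BSG-Hot they ran from -0.287 to 0.0333. Libraries of different numbers were not compared. With the replicate block 2 genes were higher and 1 (POLE) lower in BSG against NC (13.6% of all genes called in either direction) and 0 in the other comparisons.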

Other observations

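Genes that follow or guard replication were counted from 3 further lists in the same fits. Of 15 genes of chromatin that is rebuilt behind the fork, edgeR called NASP, a histone chaperone, higher in BSG than in NC (log2 fold change 0.37, edgeR adjusted p = 0.0247), and CDCA7, which helps keep DNA methylation, lower (-0.30, edgeR adjusted p = 0.02304). That is 6.67% of the 15 in each direction, close to the 5.5% of all genes called higher and 6.22% called lower. CDCA7 was also lower than in NC in M-BSG-Hot (-0.39) and in M-BSG (-0.34). There it was again 6.67% of the 15, beside 3.51% and 3.13% of all genes lower. Without NC 2 its edgeR adjusted p was 0.0522 in M-BSG-Hot, 0.0811 in M-BSG and 0.0945 in BSG, and that of NASP without NC 3 was 0.104. Further fits without 1 library lost these calls as well: NASP without NC 1, NC 2, BSG 1 or BSG 3, and CDCA7 without NC 1 or NC 3 in M-BSG and BSG, without M-BSG 2 or M-BSG 3 in M-BSG, and without BSG 1 in BSG. Of 17 replication checkpoint genes edgeR called FANCD2, a Fanconi anemia protein that protects stalled forks, lower in BSG (-0.37, edgeR adjusted p = 0.00647), a call kept in all 12 fits without 1 library. That is 5.88% of the 17, close to the 6.22% of all genes called lower. Of 22 mitosis genes AURKA, a spindle kinase, was higher in M-BSG (0.31) and in BSG (0.38), and BIRC5 (survivin) in BSG (0.30). These are 4.55% of the 22 in M-BSG and 9.09% in BSG, beside 3.22% and 5.5% of all genes higher. Without NC 3 the edgeR adjusted p was 0.163 for AURKA in M-BSG, 0.0526 for AURKA in BSG and 0.115 for BIRC5. The call of AURKA in M-BSG was also lost without NC 1, NC 2, BSG 3, M-BSG 1 or M-BSG 2, and that of BIRC5 without NC 1, NC 2 or BSG 1. In M-BSG-Hot against NC edgeR called 0 of the 17 checkpoint and 0 of the 22 mitosis genes. Of all genes 1.4% were higher there and 3.51% lower. At an unadjusted p under 0.05 there were 4 and 2, beside 16.8% of all genes.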
